A study of Mus musculus with 10 samples.

Results

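The D-type cyclins, their kinases CDK4 and CDK6 and the inhibitors of these kinases were followed in lineage-negative (Lin-) mouse bone marrow cells. The 10 genes were chosen by name, with earlier results of these data known. They were the cyclins Ccnd1, Ccnd2 and Ccnd3 and the kinases Cdk4 and Cdk6. With them were the CIP/KIP inhibitors Cdkn1b and Cdkn1c, and the INK4 inhibitors Cdkn2a, Cdkn2c and Cdkn2d. These are 10 of the 55359 genes in the expression table, and all 10 were found by symbol. All 10 passed the filter on low values (0.1 FPKM or more on average over the libraries), which left 18742 genes for the test. Cdkn2a passed it through the libraries labelled cKO, since its level in those labelled WT was close to 0.

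D-type cyclins bind CDK4 or CDK6 in G1 phase, and the active complexes phosphorylate the retinoblastoma protein RB, which releases E2F transcription factors and lets genes of DNA replication be transcribed. INK4 proteins bind CDK4 and CDK6 and keep the cyclin out, whereas CIP/KIP proteins bind cyclin-CDK complexes, restraining CDK2 and also helping cyclin D assemble with CDK4. In blood formation Cdkn1b (p27), Cdkn1c (p57) and Cdkn2c (p18) are known for holding stem and progenitor cells out of cycle, and Cdk6 for promoting their entry into it.

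The study compared 5 libraries labelled WT, from Dhx9f/f mice, with 5 libraries labelled cKO, from Dhx9f/f;MX1 mice. Both genotypes carry the loxP-flanked Dhx9 alleles, and the second also carries Cre under the interferon-responsive Mx1 promoter, which the study switches on by injecting poly(I:C), a synthetic RNA that sets off an interferon response. Dhx9 encodes an RNA helicase, and the genotype field of the second group reads as a knock-down. Replicates are individual mice by the general statement of the study's methods, which does not name these libraries. By the Xist and Ddx3y values given below, sex was not balanced between the groups. Whether the WT mice sequenced here received poly(I:C) and the age of the mice are not given in the sources used here, so an effect of poly(I:C) cannot be told apart from that of the genotype if only one group received it. Cells of mature lineages were removed with a depletion kit and RNA was taken in bulk, so that fewer cells of a type and less RNA per cell cannot be told apart. Values are FPKM, fragment numbers divided by gene length and by sequencing depth, which allows levels of different genes to be set side by side.

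A few facts of the whole series bear on the values below. The libraries held 13839000 to 18712500 fragments as read from the steps of the values, and library cKO 1 was the shallowest. The targeted gene went against the labels: Dhx9 was at 65.4 to 72.4 FPKM in the libraries labelled WT and at 130.8 to 156.5 FPKM in those labelled cKO, although a value over the whole gene does not show which exons are present. Monocyte and dendritic cell markers summed to 821 to 1456 FPKM in the WT libraries and to 5.61 to 244.1 FPKM in the cKO libraries, and 8 of 8 were called lower. Erythroid markers summed to 501 to 1400 and 1871 to 2975 FPKM, and 5 of 9 were called higher. Of the 8 stem cell markers 7 were called lower, among them Hlf (log2 fold change -2.80) and Meis1 (-1.94), and these 7 summed to 10.6 to 19.7 FPKM in WT and 1.5 to 4.87 FPKM in cKO. The eighth, Mllt3, was higher by adjusted p, at 5.13 to 7.18 and 9.99 to 11.5 FPKM. Over all genes tested, 4.60% were called higher and 16.8% lower. Library cKO 1 stood apart within its group: its 9 neutrophil markers summed to 2594 FPKM, against 147.0 to 1116 FPKM in cKO 2 to cKO 5 and 2725 to 3698 FPKM in the WT libraries. The markers in this sum did not move together. S100a9 was at 894.8 FPKM in cKO 1, against 7.57 to 157.7 FPKM in the other 4 and 48.3 to 93.1 FPKM in WT. Mpo was at 277.3 FPKM and Elane at 183.7 FPKM in cKO 1, within 49.4 to 391.9 and 27.7 to 247.1 FPKM in cKO 2 to cKO 5. Both were below all WT libraries (973.8 to 1346 and 676.6 to 998.5 FPKM). The changes of the 10 genes are given below with and without cKO 1. This library was singled out after its values were seen, so results without it are descriptive. The part that these shifts in cell markers have in the changes of the 10 genes was not tested.

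Promoter sequences of the INK4 genes are shown first because the 3 genes called below are all of this family. RefSeq promoter windows on GRCm38.p6, each taken as the 250 bases before an annotated start and written 5′ to 3′ on the strand of the gene, were found for 7 of the 10 genes (10 windows). Capitals mark the E2F motif (TTTCCCGC, TTTCGCGC, TTTGCCGC or TTTGGCGC) and the GC box (GGGCGG), either of which may lie on the opposite strand. The windows lie at chr4:89294620-89294869 and chr4:89282193-89282442 for the upstream and the downstream start of Cdkn2a, at chr4:109666757-109667006 for the upstream start of Cdkn2c and at chr9:21291210-21291459 for Cdkn2d, all on the minus strand.
Cdkn2a, upstream start: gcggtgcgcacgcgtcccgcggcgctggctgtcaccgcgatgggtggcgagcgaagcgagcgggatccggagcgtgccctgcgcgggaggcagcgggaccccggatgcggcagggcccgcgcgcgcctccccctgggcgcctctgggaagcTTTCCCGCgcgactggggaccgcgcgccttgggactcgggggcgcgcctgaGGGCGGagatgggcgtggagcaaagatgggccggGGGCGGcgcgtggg
Cdkn2a, downstream start: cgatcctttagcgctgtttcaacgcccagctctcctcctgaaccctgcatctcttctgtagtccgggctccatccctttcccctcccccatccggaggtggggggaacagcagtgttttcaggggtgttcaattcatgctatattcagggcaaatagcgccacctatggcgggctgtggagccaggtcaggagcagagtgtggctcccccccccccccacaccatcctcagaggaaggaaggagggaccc
Cdkn2c, upstream start: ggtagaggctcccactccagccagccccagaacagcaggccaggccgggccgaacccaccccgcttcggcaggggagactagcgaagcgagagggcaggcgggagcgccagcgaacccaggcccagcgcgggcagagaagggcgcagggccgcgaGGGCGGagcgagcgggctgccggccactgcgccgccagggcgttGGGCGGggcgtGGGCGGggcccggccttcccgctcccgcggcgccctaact
Cdkn2d: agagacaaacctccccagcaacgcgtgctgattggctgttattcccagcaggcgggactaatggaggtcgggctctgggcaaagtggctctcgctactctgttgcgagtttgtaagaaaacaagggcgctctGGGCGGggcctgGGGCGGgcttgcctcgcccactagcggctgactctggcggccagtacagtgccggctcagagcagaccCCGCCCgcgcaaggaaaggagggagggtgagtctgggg
The upstream window of Cdkn2a held TTTCCCGC with its first base 99 bases before the start, and this was the only E2F match among the 10 windows. E2F motifs of these 4 spellings were in 1.9% of the 32851 promoter windows of the same length. The GC box was in 7 of the 10 windows, including 3 of the 4 printed here, against 32.7% of all windows. A downstream window of Cdkn2c, not printed here, held neither the GC box nor the E2F motif. The 10 windows were 42.8% to 78.4% G and C, and the shares over all windows were not matched for this. CCAAT was in 3 of 10 windows against 33.8% of all, the FOXO motif TGTTTAC in 1 (Ccnd3) against 3.2%, and the GATA motif AGATAA in 0 against 10%. The 2 starts of Cdkn2a belong to different first exons: the upstream one is that of p19Arf and the downstream one that of p16Ink4a, proteins that share later exons in different reading frames. The deposited value covers the whole gene and cannot separate them.

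By the call used here, an adjusted p under 0.05 in limma with Benjamini-Hochberg adjustment over all 18742 genes and a fold change of at least 2, 1 of the 10 genes rose in the libraries labelled cKO (Cdkn2a) and 2 fell (Cdkn2c and Cdkn2d). Over all genes tested, 4.60% were called higher and 16.8% lower. By adjusted p alone, 2 of the 10 were higher (Ccnd1 and Cdkn2a) and 4 lower (Cdk6, Cdkn1b, Cdkn2c and Cdkn2d), against 16.7% and 28.3% of all genes. The 5 libraries labelled cKO lay entirely above the 5 labelled WT for 1 gene (Cdkn2a) and entirely below them for 2 (Cdk6 and Cdkn2d), against 10.6% and 21.6% of all genes. The median log2 change of the 10 genes was -0.21 and that of all genes tested -0.11. Without library cKO 1, 2 genes were called higher (Ccnd2 and Cdkn2a) and 3 lower (Cdkn1b, Cdkn2c and Cdkn2d), against 5.07% and 17.4% of 18702 genes. The plot of FPKM by library shows each value behind these counts.

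**Figure D1:**
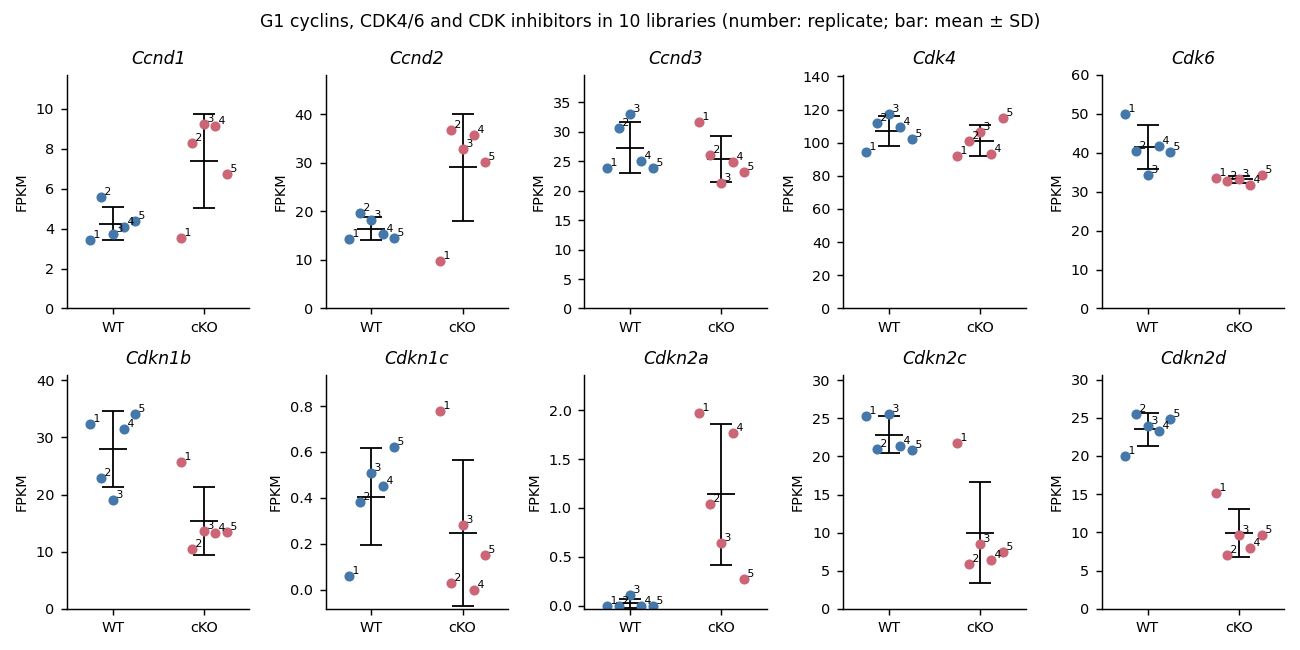
FPKM of each of the 10 genes (linear axes) in 5 libraries labelled WT (blue) and 5 labelled cKO (red). Points are libraries, numbered by replicate, and black bars are the mean ± SD of 5. Cdkn2d, Cdk6 and Cdkn2a have groups that do not overlap, and library cKO 1 lies within the WT range for 4 genes (Ccnd1, Ccnd3, Cdkn1b and Cdkn2c).

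Among the D-type cyclins, Ccnd1 and Ccnd2 were higher in 4 of the 5 libraries labelled cKO and Ccnd3 was not. Ccnd2 (ENSMUSG00000000184; chromosome 6 of GRCm39, 127102125 to 127129156, minus strand), a cyclin that growth factor signalling induces in many blood cells, was at 14.38, 19.63, 18.20, 15.29 and 14.46 FPKM in WT 1 to WT 5. It was at 9.84, 36.74, 32.88, 35.76 and 30.13 FPKM in cKO 1 to cKO 5. The 4 libraries cKO 2 to cKO 5 were thus above every WT library, and cKO 1 was below every WT library. The means were 16.4 ± 2.38 and 29.1 ± 11.1 FPKM (SD, n = 5 each), and the log2 fold change of 0.70 (SE 0.321, adjusted p = 0.1004 in limma) did not pass the test. Without cKO 1 it was 1.05 (SE 0.108, adjusted p = 1.00e-04 in limma) and passed.

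Ccnd1 (ENSMUSG00000070348; chromosome 7, 144483668 to 144493662, minus strand), the cyclin best known as a target of mitogen signalling, was at 3.43, 5.58, 3.75, 4.10 and 4.38 FPKM in WT 1 to WT 5 and at 3.53, 8.30, 9.26, 9.12 and 6.75 FPKM in cKO 1 to cKO 5. For Ccnd1, cKO 1 sat inside the WT range while the other 4 were above it. The log2 fold change of 0.73 (SE 0.251, adjusted p = 0.0355 in limma) passed the adjusted p but not the fold limit, and without cKO 1 it was 0.97 (adjusted p = 6.46e-04 in limma). Leaving out any one of 8 other libraries, all except WT 2, took the adjusted p past 0.05, to between 0.0551 and 0.0828 in limma. Ccnd3 (ENSMUSG00000034165; chromosome 17, 47815767 to 47910624, plus strand), which is needed for the divisions of maturing red cells and lymphocytes, was the most abundant D-type cyclin in every WT library, at 23.8 to 33.1 FPKM. It was at 21.3 to 31.7 FPKM in the libraries labelled cKO, its groups overlapped, and its log2 fold change of -0.10 (SE 0.126, adjusted p = 0.538 in limma) did not pass and turned to 0.00 under median-ratio scaling. Without cKO 1 it was -0.19 (adjusted p = 0.205 in limma).

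The make-up of the D-type cyclin pool followed from these values. Ccnd2 made up 33.1% to 35.1% of the summed D-type cyclin FPKM in the 5 WT libraries, 50.2% to 51.8% in cKO 2 to cKO 5 and 21.8% in cKO 1. Ccnd3 made up 54.9% to 60.1% in the WT libraries, 33.6% to 38.6% in cKO 2 to cKO 5 and 70.3% in cKO 1. Library cKO 1 therefore lay outside the WT range on the other side from cKO 2 to cKO 5 for both shares. The summed level was 41.6 to 55.9 FPKM in WT, 60.1 to 71.1 FPKM in cKO 2 to cKO 5 and 45.0 FPKM in cKO 1.

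The kinases differed little between the groups. Cdk4 (ENSMUSG00000006728; chromosome 10, 126895180 to 126903789, plus strand) was the most abundant of the 10 genes in every library, at 94.1 to 117.6 FPKM in the WT libraries and 91.7 to 114.7 FPKM in the libraries labelled cKO. The groups overlapped and the log2 fold change was -0.08 (SE 0.0812, adjusted p = 0.453 in limma), which turned to 0.03 under median-ratio scaling and was -0.05 without cKO 1. Cdk6 (ENSMUSG00000040274; chromosome 5, 3391485 to 3581008, plus strand), the partner kinase that is abundant in blood progenitors, was at 50.08, 40.39, 34.36, 41.74 and 40.31 FPKM in WT 1 to WT 5 and at 33.49, 32.87, 33.35, 31.84 and 34.33 FPKM in cKO 1 to cKO 5. Every library labelled cKO was below every WT library, although the highest of the former and the lowest of the latter, WT 3, were nearly equal. The means were 41.4 ± 5.64 and 33.2 ± 0.914 FPKM (SD, n = 5 each), and the log2 fold change of -0.31 (SE 0.0866, adjusted p = 0.0137 in limma) passed the adjusted p but was far under the fold limit. It was -0.31 without cKO 1 as well, and under median-ratio scaling it was -0.20 and did not pass (adjusted p = 0.0627 in limma). Cdk6 made up 22.6% to 34.7% of the summed kinase FPKM in WT and 23.0% to 26.7% in the libraries labelled cKO, ranges that overlap.

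**Figure D2:**
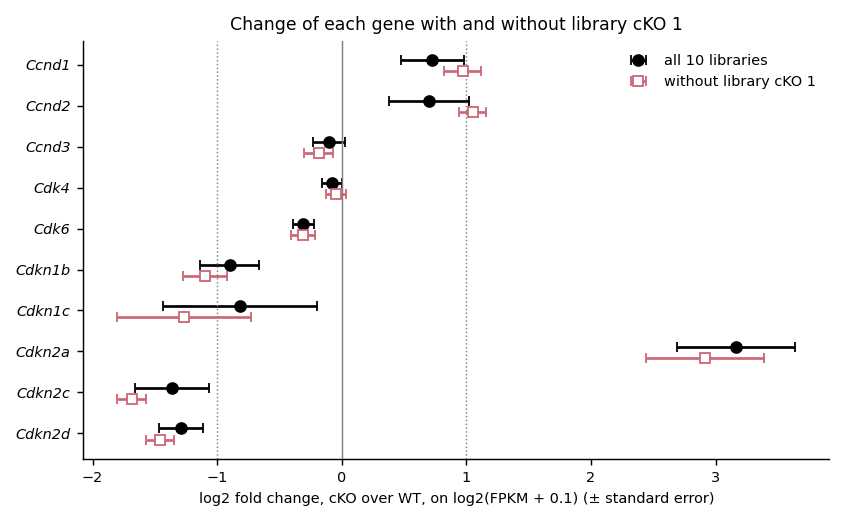
Log2 fold change (libraries labelled cKO over WT, on log2(FPKM + 0.1)) of the 10 genes, with bars of 1 standard error from limma. Filled circles use all 10 libraries and open squares leave out cKO 1, and dotted lines mark a fold change of 2 in either direction. Without cKO 1, Ccnd2 moved from 0.70 to 1.05, Cdkn1b from -0.90 to -1.10 and Cdkn2c from -1.36 to -1.69.

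The 2 abundant INK4 inhibitors fell together. Cdkn2d (p19Ink4d; ENSMUSG00000096472; chromosome 9, 21199700 to 21202727, minus strand) was at 19.98, 25.52, 23.92, 23.26 and 24.88 FPKM in WT 1 to WT 5 and at 15.15, 7.02, 9.66, 7.91 and 9.62 FPKM in cKO 1 to cKO 5. All 5 libraries labelled cKO were below all WT libraries, with cKO 1 the nearest to them. The means were 23.5 ± 2.16 and 9.87 ± 3.16 FPKM (SD, n = 5 each), 2.38-fold higher in WT, with a log2 fold change of -1.29 (SE 0.177, adjusted p = 2.61e-04 in limma). Without cKO 1 the change was -1.46 (adjusted p = 3.27e-05 in limma).

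Cdkn2c (p18Ink4c; ENSMUSG00000028551; chromosome 4, 109517957 to 109524386, minus strand) was at 25.34, 20.97, 25.60, 21.41 and 20.82 FPKM in WT 1 to WT 5 and at 21.74, 5.87, 8.47, 6.46 and 7.46 FPKM in cKO 1 to cKO 5. Library cKO 1 was inside the WT range and the other 4 were at less than the lowest WT value by a wide margin. The mean was 22.8 ± 2.42 FPKM in WT (SD, n = 5) and 2.28-fold lower in cKO, and 7.07 ± 1.14 FPKM in cKO 2 to cKO 5 alone (SD, n = 4). The log2 fold change over all 10 libraries, -1.36 (SE 0.299, adjusted p = 0.00369 in limma), passed the test. Without cKO 1 it was -1.69 (SE 0.117, adjusted p = 2.06e-05 in limma).

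Cdkn2a moved the other way, from almost nothing. It (ENSMUSG00000044303; chromosome 4, 89192708 to 89212890, minus strand) encodes p16Ink4a and p19Arf, the second of which acts on p53 through MDM2, and its rise is a known mark of senescence and oncogene stress. Cdkn2a was at 0, 0, 0.11, 0 and 0 FPKM in WT 1 to WT 5 and at 1.97, 1.04, 0.64, 1.77 and 0.27 FPKM in cKO 1 to cKO 5. Every library labelled cKO, cKO 1 included, was above every WT library. In fragments these values stand for 0, 0, 2, 0 and 0 in WT and 32, 21, 12, 31 and 5 in cKO, so the ratio of the group sums per fragment sequenced was 53.4, with an exact 95% interval of 14.4 to 447.2 that covers counting error only. The fitted log2 fold change was 3.16 (SE 0.477, adjusted p = 4.25e-04 in limma), a size that depends on the pseudocount and fell to 0.995, just under the fold limit, with a pseudocount of 1. Without cKO 1 it was 2.91. Even so, Cdkn2a made up 0.870% to 6.01% of the summed FPKM of the 5 inhibitors in the libraries labelled cKO.

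The gene next to Cdkn2a was also near 0 in WT. Cdkn2b (p15Ink4b; chromosome 4, 89223204 to 89229276, minus strand), which is not one of the 10 genes, lies upstream of Cdkn2a with a gap of 10313 bases between the annotated genes. It was at 0 to 0.14 FPKM in the WT libraries and at 0.78, 1.26, 1.26, 2.31 and 0.63 FPKM in cKO 1 to cKO 5 (fitted log2 fold change 3.09, which depends on the pseudocount, SE 0.386, adjusted p = 1.67e-04 in limma; 3.21 without cKO 1). These groups do not overlap either, and like Cdkn2a this gene passed the filter on low values through the libraries labelled cKO. Chosen after its values were seen, Mtap, the nearest protein-coding gene on the other side at 93388 bases, was at 13.9 to 19.8 FPKM in WT and at 14.69, 31.25, 36.08, 27.11 and 28.04 FPKM in cKO 1 to cKO 5. The groups overlapped through cKO 1 alone, and the log2 fold change was 0.62 (adjusted p = 0.0345 in limma), or 0.83 without cKO 1 (adjusted p = 5.16e-04 in limma), under the fold limit both times.

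The CIP/KIP inhibitor Cdkn1b (p27; ENSMUSG00000003031; chromosome 6, 134897364 to 134902476, plus strand), whose protein is removed by the SKP2 ubiquitin ligase when cells enter S phase, was the most abundant of the 5 inhibitors in 3 WT libraries and in all 5 libraries labelled cKO. It was at 32.40, 22.97, 19.04, 31.41 and 34.13 FPKM in WT 1 to WT 5 and at 25.70, 10.52, 13.65, 13.30 and 13.52 FPKM in cKO 1 to cKO 5. Libraries cKO 2 to cKO 5 were below every WT library and cKO 1 was within the WT range. The means were 28.0 ± 6.60 and 15.3 ± 5.93 FPKM (SD, n = 5 each), and the log2 fold change of -0.90 (SE 0.236, adjusted p = 0.00976 in limma) passed the adjusted p but not the fold limit. It passed both without cKO 1 (-1.10, adjusted p = 7.47e-04 in limma) and without WT 3 (-1.03, adjusted p = 0.00552 in limma), the lowest WT library.

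Cdkn1c (p57; ENSMUSG00000037664; chromosome 7, 143012069 to 143014806, minus strand), an imprinted gene that marks quiescent stem cells, was at 0.06 to 0.62 FPKM in the WT libraries and at 0.78, 0.03, 0.28, 0 and 0.15 FPKM in cKO 1 to cKO 5. The highest value of all was in cKO 1 and the groups overlapped. About 71 fragments in all WT libraries and 39 in all libraries labelled cKO lay behind these values, and the log2 fold change of -0.82 (SE 0.618, adjusted p = 0.311 in limma) did not pass, nor did that of -1.26 without cKO 1 (adjusted p = 0.0771 in limma). The ratio of the group sums per fragment sequenced, cKO over WT, was 0.581. Its exact 95% interval of 0.383 to 0.871 covers counting error only. With the spread between libraries a difference was not detectable.

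Exact two-sided permutation tests over the libraries, one for each of the 10 genes and not adjusted, reached the smallest p that 5 against 5 allow, 0.00794, for Cdk6, Cdkn2a and Cdkn2d. That p only restates that the groups of these genes do not overlap and adds no support. Over all genes tested, 10.6% had all libraries labelled cKO above all WT libraries and 21.6% had them all below. Cdkn2a also passed the filter on low values through the libraries labelled cKO. The tests gave p = 0.0238 for Cdkn1b, 0.0317 for Cdkn2c, 0.0476 for Ccnd1 and 0.0794 for Ccnd2 (exact permutation tests, n = 5 each). Ccnd3, Cdk4 and Cdkn1c were at 0.476, 0.341 and 0.254 in the same exact tests. In tests without cKO 1, added after the data were seen, the 7 genes other than these 3 were at 0.0159, the smallest p that 5 against 4 allow, and Ccnd3, Cdk4 and Cdkn1c at 0.222, 0.587 and 0.0794 (exact permutation tests). For these 7 genes the remaining libraries labelled cKO were already known to lie entirely on 1 side of the WT libraries. Their p without cKO 1 was therefore fixed in advance and adds no support.

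**Figure D3:**
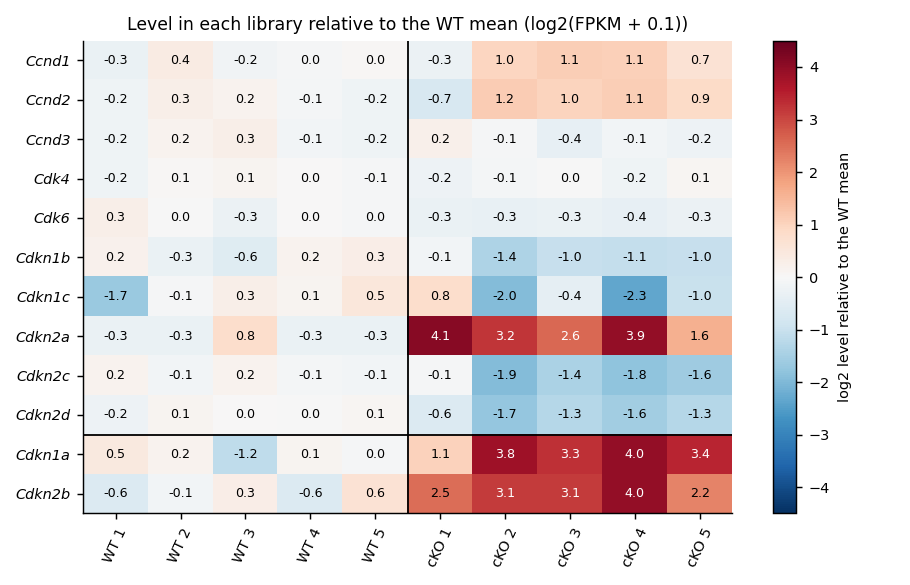
Level of the 10 genes and, under the line, of Cdkn1a and Cdkn2b in each library relative to the WT mean, as a difference on the log2(FPKM + 0.1) scale (red higher, blue lower). Column cKO 1 is near 0 for Ccnd1, Cdkn1b and Cdkn2c, where cKO 2 to cKO 5 are not, and high for Cdkn2a and Cdkn2b like the others.

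As a sum, the 5 inhibitors among the 10 genes were at 69.2 to 80.5 FPKM in the WT libraries, 65.3 FPKM in cKO 1 and 24.5 to 32.7 FPKM in cKO 2 to cKO 5, groups that do not overlap. The groups overlapped once the other CDK inhibitors were added. Cdkn1a (p21), a p53 target that inhibits cyclin-CDK complexes, was at 3.65, 2.95, 1.13, 2.90 and 2.54 FPKM in WT 1 to WT 5 and at 5.57, 38.64, 26.71, 42.60 and 29.54 FPKM in cKO 1 to cKO 5. All libraries labelled cKO were above all WT libraries, with cKO 1 again the nearest, and the log2 fold change was 3.21 (SE 0.518, adjusted p = 6.22e-04 in limma), or 3.72 without cKO 1. With Cdkn1a and Cdkn2b included, the sum of 7 inhibitors was 70.4 to 83.1 FPKM in WT and 60.7 to 74.4 FPKM in the libraries labelled cKO, which overlap. Cdkn1a made up 1.61% to 4.48% of that sum in WT, 7.77% in cKO 1 and 44.0% to 60.0% in cKO 2 to cKO 5.

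The ratio of summed D-type cyclin FPKM to summed inhibitor FPKM shows the same dependence on which inhibitors are counted. Over the 10 genes it was 0.531 to 0.801 in the WT libraries, 0.689 in cKO 1 and 1.94 to 2.90 in cKO 2 to cKO 5. With Cdkn1a and Cdkn2b among the inhibitors it was 0.511 to 0.782 in WT, 0.628 in cKO 1 and 0.937 to 1.10 in cKO 2 to cKO 5. In both forms cKO 1 was within the WT range and the other 4 were above it. These are ratios of RNA and say nothing of protein.

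**Figure D4:**
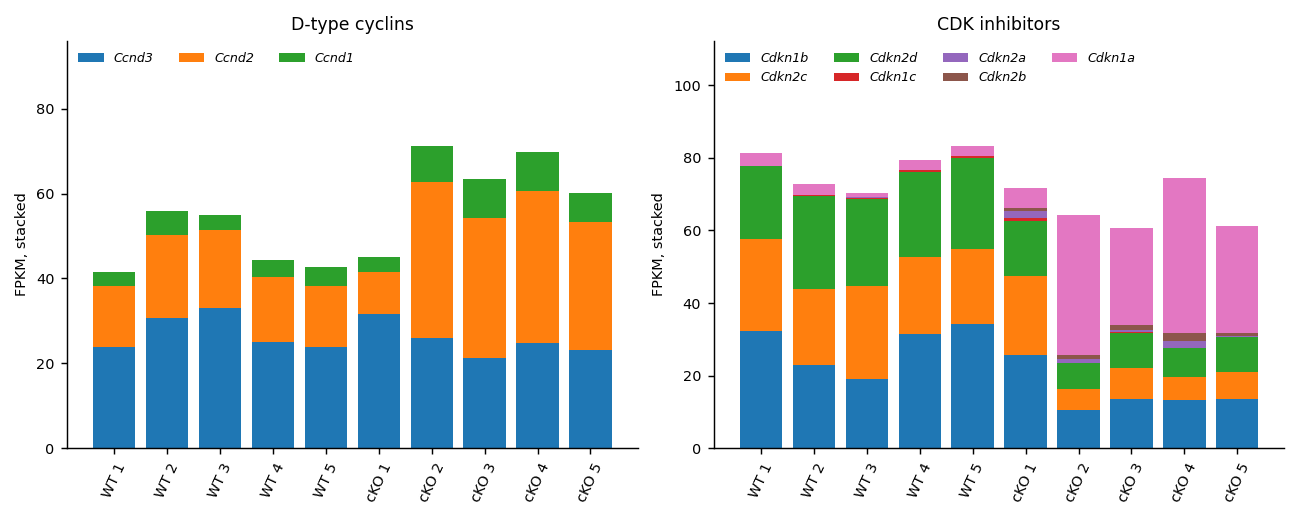
Stacked FPKM of the 3 D-type cyclins (left) and of 7 CDK inhibitors (right; Cdkn1a and Cdkn2b are added to the 5 of the 10 genes) in each library. In cKO 2 to cKO 5 the Ccnd2 band is the widest cyclin band and Cdkn1a makes up 44.0% to 60.0% of the inhibitor column, against 1.61% to 4.48% in WT.

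Downstream of the kinases, 1 of 23 genes of the RB-E2F axis and late G1 was called higher and 0 lower, against 4.60% and 16.8% of all genes. The list median was 0.06 against -0.11 over all genes. The called gene was E2f2, an activating E2F that is abundant in maturing red cells, at 22.21, 15.16, 25.04, 18.92 and 15.35 FPKM in WT 1 to WT 5 and 78.29, 50.95, 35.20, 46.63 and 30.57 FPKM in cKO 1 to cKO 5. The groups did not overlap and the log2 fold change was 1.27 (SE 0.240, adjusted p = 0.00155 in limma). By adjusted p alone 4 were higher, adding Rb1 (0.77), which encodes RB itself, E2f4 (0.70), the main repressive E2F of resting cells, and Cdc25a (0.35), a phosphatase that activates CDK2, and 1 was lower, the RB relative Rbl2 (-0.33). Over all genes 16.7% were higher and 28.3% lower by adjusted p alone. Among the highest levels were Tfdp1, the DNA-binding partner of E2F proteins, at 91.8 to 110.6 FPKM in WT and 89.5 to 132.0 FPKM in cKO, and E2f4 at 58.9 to 96.7 and 107.9 to 127.4 FPKM. The cyclin E and CDK2 genes were among those that did not pass: Ccne1 had a log2 fold change of 0.42 (adjusted p = 0.0639 in limma), Ccne2 of 0.06 and Cdk2 of -0.24. Without cKO 1 the count by adjusted p alone was 6 higher and 6 lower, the latter including Cdk2 (-0.35), E2f7 (-0.58) and E2f8 (-0.39), against 19.2% and 30.8% of all genes, and E2f2, at 1.07, was the 1 gene past both limits.

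**Figure D5:**
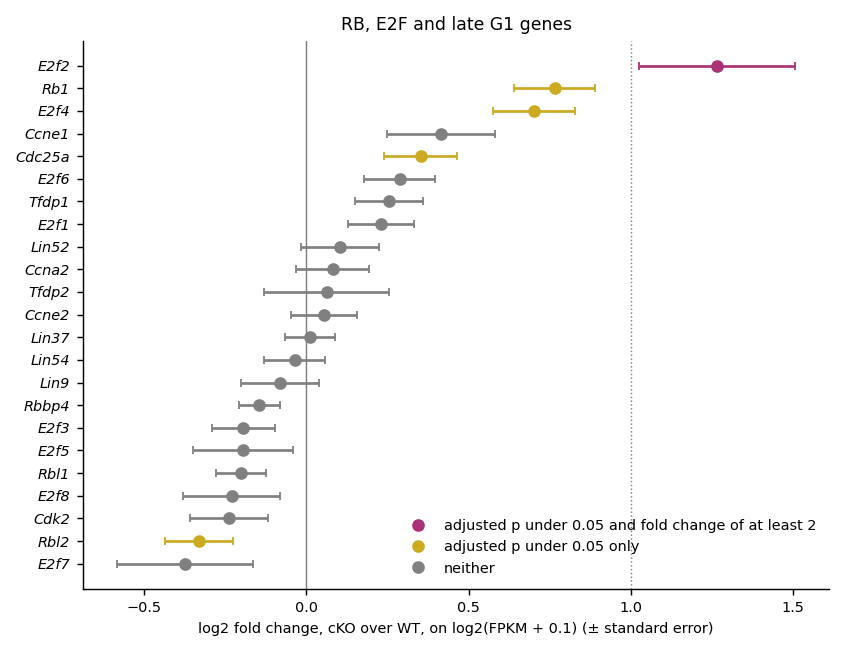
Log2 fold change (libraries labelled cKO over WT, on log2(FPKM + 0.1)) of 23 RB, E2F and late G1 genes with bars of 1 standard error from limma, ordered by size and coloured by whether the adjusted p and the fold limit were passed. E2f2 at 1.27 was past both, and Rb1, E2f4, Cdc25a and Rbl2 passed the adjusted p alone.

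Of 15 genes for the turnover, assembly and activation of the cyclin-CDK complexes, 0 were called, with a median of 0.12. Over all genes 4.60% were called higher and 16.8% lower. By adjusted p alone in limma 6 of the 15 were higher and 1 lower, against 16.7% and 28.3% of all genes. The largest of these was Fbxw7 (0.73, adjusted p = 8.89e-04 in limma), the F-box protein that marks cyclin E for destruction, and the lower one was Skp2 (-0.53, adjusted p = 0.00614 in limma), which marks p27. Hsp90ab1 (1048 to 1239 FPKM in WT, 1366 to 1472 FPKM in cKO), a chaperone of CDK4, was the most abundant at 0.29, followed by Cks1b at -0.09. Of 12 genes known to regulate the 10, 0 were called, with a median of -0.30. By adjusted p alone 1 was higher and 7 lower, against the same 16.7% and 28.3% of all genes. The 1 higher was Bmi1 (0.38, adjusted p = 6.38e-04 in limma). Like Cbx7 (-0.59, adjusted p = 0.0345 in limma) and Rnf2 (-0.29, adjusted p = 0.0166 in limma), which were lower, it encodes a Polycomb protein of the complex known for silencing Cdkn2a. The Polycomb genes Ring1 (0.17, adjusted p = 0.188 in limma) and Ezh2 (0.05, adjusted p = 0.725 in limma) of the same list did not pass. Foxo1, a factor that activates Cdkn1b, was lower (-0.99, adjusted p = 0.00345 in limma) just under the fold limit and passed it without cKO 1 (-1.05). Foxo3, the more abundant of the FOXO genes here at 22.0 to 23.3 FPKM in WT and 19.9 to 23.5 FPKM in cKO, had a change of -0.09 (adjusted p = 0.233 in limma), and Myc, the most abundant of the list, one of 0.16 (adjusted p = 0.623 in limma). Its partner Max, the next in level, was among the 7 lower (-0.32, adjusted p = 0.00304 in limma).

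Of 9 genes of cycling cells, 0 were called, against 4.60% higher and 16.8% lower of all genes, and the median was 0.16. By adjusted p alone Mki67 (0.35) and Mcm2 (0.42) were higher and Top2a (-0.45) lower, against 16.7% and 28.3% of all genes. Mki67, a protein of all cycling cells, was at 169.6 to 211.9 FPKM in the WT libraries and at 208.2 to 282.7 FPKM in those labelled cKO, with overlapping groups. Top2a, a topoisomerase of dividing cells, was at 128.1 to 140.9 and 91.9 to 122.4 FPKM, without overlap. Pcna, the replication clamp, was at 174.0 to 257.3 and 215.2 to 267.9 FPKM, also overlapping. In these pathway lists, E2f2, Cdkn1a and Cdkn2b were named as called genes and Tfdp1, E2f4, Hsp90ab1, Cks1b, Myc, Max, Pcna and Mki67 for their level. The others were chosen after their values were seen, as were Hlf, Meis1, S100a9 and Irf8 among the markers.

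The genes whose profiles over the 10 libraries lay closest to those of the 3 called genes were found by the root mean square of the difference between centred log2 levels, searched over 12353 genes that averaged 1 FPKM or more. For Cdkn2d these were Ndufb2, Mgat1 and Per3, at 0.132, 0.144 and 0.183. For Cdkn2c they were Caskin2, Sgk3 and Tnfrsf26, at 0.211, 0.219 and 0.222, all with cKO 1 nearer to the WT libraries than cKO 2 to cKO 5 were. For Cdkn2a they were Ugt8a, Sapcd1 and Susd2, at 0.547, 0.559 and 0.566, which is less close. Sapcd1 was at 0.91 to 2.44 FPKM in WT and at 31.28, 37.40, 16.36, 43.46 and 6.60 FPKM in cKO 1 to cKO 5, with cKO 3 and cKO 5 lowest of the cKO libraries as for Cdkn2a.

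Libraries cKO 3 and cKO 5, where Cdkn2a was at 0.64 and 0.27 FPKM, were also those with the most monocyte marker RNA among the libraries labelled cKO: Irf8 was at 0.38, 0.42, 5.41, 0.09 and 10.16 FPKM in cKO 1 to cKO 5, against 38.1 to 53.7 FPKM in WT. For Cdkn2c and Cdkn2d the same 2 libraries were not set apart from cKO 2 and cKO 4 to the same degree, at 8.47 and 7.46 against 5.87 and 6.46 FPKM and at 9.66 and 9.62 against 7.02 and 7.91 FPKM. This was noticed after the values were seen and rests on 5 libraries, and its relation to the mix of cells was not tested. Xist, transcribed from the inactive X chromosome, was at 99.2 to 127.8 FPKM in WT 3 to WT 5 and at no more than 0.09 FPKM in the other 7 libraries. Ddx3y, a Y chromosome gene chosen after its values were seen, was at 0 to 0.05 FPKM in WT 3 to WT 5. It was at 19.7 to 38.5 FPKM in the other 7. By these genes WT 3 to WT 5 came from female mice and all other libraries from males. Sex and genotype are thus partly confounded. With a covariate in limma for Xist above 1 FPKM, 1 of the 10 genes was called higher and 2 lower, with log2 fold changes of 3.38 for Cdkn2a, -1.38 for Cdkn2c and -1.24 for Cdkn2d. That fit called 3.40% of all genes higher and 14.9% lower. In that fit Ccnd1 (0.66, adjusted p = 0.175 in limma) and Cdkn1b (-0.90, adjusted p = 0.0629 in limma) no longer passed the adjusted p.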

How the data were processed

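RNA-seq of 5 libraries labelled WT and 5 labelled cKO was used. Per the submitters' processing notes, the tools were cutadapt 1.9.1, HISAT2 2.0.1 and HTSeq 0.6.1 with GRCm39. The authors deposited their values as FPKM with 2 decimals. The annotation and gene lengths behind them are not given in the sources used here. Members and lists were chosen with earlier results of these data known.

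All 10 columns were mapped to samples by name. Depth was read from genes with a single transcript: 95.3% to 95.8% of low values, of up to 20 fragments, were within 0.2 of a whole fragment, where 40% would be by chance. A gene of 1 kilobase at the floor of 3 fragments was at 0.160 to 0.217 FPKM. Intervals and floors cover counting error only. Fragments of genes with several transcripts are approximate. No libraries within a group were alike within sampling noise (the lowest chi-square was 4.08 for each degree of freedom).

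FPKM are not counts, so limma 3.58.1 (lmFit, eBayes with a trend; R 4.3.3) was run on log2(FPKM + 0.1), two-sided, on all 10 libraries without a block, with Benjamini-Hochberg adjustment over 18742 genes. Folds understate the change of low genes. The fit was tested on simulated data over 18263 genes: it recovered 170 (85%) of 200 genes given a log2 change of 2, none with a reversed sign, and made 3 false calls. Every simulated gene had the same set dispersion, no library stood apart and only these 200 genes changed. In the data the spread differed between genes and far more genes were called. The rates of recovery and of false calls there are not known from the simulation. Exact permutation tests used scipy 1.17.1 in Python 3.11.15. Genes named were the 10 members, in each pathway list those called and the 2 of highest level, the 3 nearest profiles of each called member, up to 2 markers a list, Dhx9 and Xist; others are said to be chosen after their values were seen. Gene coordinates come from GENCODE on GRCm39 and promoters from RefSeq on GRCm38.p6; Ccnd1, Ccnd2 and Cdkn1c had no promoter entry. Alternatives were other pseudocounts, filters and scalings, no trend, a replicate block, an Xist covariate, adjusted p alone and each library left out.

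For the marker lists whose calls are not described in the report, 3 of 4 progenitor, 4 of 9 neutrophil, 6 of 6 megakaryocyte, 2 of 5 tested B-lymphoid, 2 of 5 T and NK, 6 of 6 mast cell, basophil and eosinophil and 4 of 4 stromal and endothelial genes were called lower and 0 higher. Over all genes tested, 16.8% were called lower and 4.60% higher. No gene of these lists with a row in the table was at 0 in every library.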

Additional observations from a re-analysis of the deposited data

Results flagged for a closer look

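Within each group of 5 libraries, a value was singled out where its gap to the nearest other library was a large part of the group's range (Dixon's test at 95%), which chance alone does in about 1 of 20 groups. Of 90 groups tested, 13 had such a value, 10 of them in library cKO 1, 2 in WT 3 and 1 in WT 1.

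Among the 10 genes, cKO 1 had 9.84 FPKM of Ccnd2 against 30.13 to 36.74 in the other 4 libraries labelled cKO, 25.7 FPKM of Cdkn1b against 10.52 to 13.65, and 21.74 FPKM of Cdkn2c against 5.87 to 8.47. The shares of the D-type cyclins followed, with Ccnd2 at 21.8% against 50.2% to 51.8% and Ccnd3 at 70.3% against 33.6% to 38.6%. Library WT 3 was the only WT library with Cdkn2a, at 0.11 FPKM and 0.159% of the inhibitor sum, which stands for 2 fragments.

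Of the RB-E2F and late G1 genes, cKO 1 was highest of the libraries labelled cKO for Ccna2 (121.06 FPKM against 85.69 to 90.6), E2f1 (20.62 against 17.21 to 17.71), E2f7 (4.41 against 1.93 to 2.38), E2f8 (48.36 against 26.74 to 29.32) and Tfdp2 (20.29 against 8.88 to 11.71). For Cdk2, WT 1 had 31.04 FPKM and WT 2 to WT 5 had 24.93 to 26.25. The summed neutrophil marker RNA was also higher in cKO 1 than in the other libraries labelled cKO, and its part in these values was not tested.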

How the results depend on the processing

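Cdkn2c and Cdkn2d were called lower in all 21 settings run, with log2 fold changes from -1.69 to -1.22 and from -1.46 to -1.18. The count of the 10 genes called higher, 1 with the settings of the report, was 0 with a pseudocount of 1 (Cdkn2a at 0.995, under the fold limit) and 0 with a mean of at least 1 FPKM required (which removed Cdkn2a and Cdkn1c). It was 2 under quantile normalization (Ccnd1 at 1.02) and 2 by adjusted p alone, and 1 to 2 when each library was left out, with 2 without cKO 1 (Ccnd2). The count called lower, 2, was 4 by adjusted p alone, and 2 to 3 when each library was left out, 3 without WT 3 or cKO 1 (Cdkn1b). Of the RB-E2F and late G1 genes, 4 were higher and 1 lower by adjusted p alone. Ccnd3 turned from -0.10 to 0.0028 and Cdk4 from -0.08 to 0.0262 under median-ratio scaling. Under median-ratio scaling Cdk6 (-0.20, adjusted p = 0.0627 in limma) and with no filter on low values Ccnd1 (adjusted p = 0.0515 in limma) no longer passed the adjusted p. The causes of these shifts other than the gene filter and the fold limit were not tested. The median of all genes moved from -0.11 to 0.10 under quantile normalization, where 41.3% of all calls were higher against 21.5%. With a pseudocount of 1, 356 genes in all were called higher and 1486 lower, and under the filter at 1 FPKM 462 and 1827, against 862 and 3153; under quantile normalization 1581 were called higher.

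The sample titles link same-numbered WT and cKO libraries by number only, and whether they were paired was not settled here. Deviations from the group means correlated at -0.01 to 0.117 between same-numbered libraries, with 0.117 for number 1 and 0.093 for number 5. Between libraries of different number they correlated at -0.097 to 0.067. With the replicate block 1 of the 10 genes was called higher and 2 lower, and 857 and 3107 of all genes. Depth limits Cdkn2a in WT. Cdkn1c rests on few fragments in both groups, and its test was limited by the spread between libraries.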
